A study of Mus musculus with 6 samples.

Results

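The genes described are 33 interferon-induced genes, chosen by name, in livers of male C57BL/6 mice. They fall into 25 genes grouped here as targets of type I interferon and 8 GTPases of the guanylate-binding (Gbp) and immunity-related (Irg) families, which interferon gamma induces most strongly. The 25 include Irf1, a factor that also acts in the interferon gamma response. Both groups of mice were 8 weeks old when obtained and ate a high-fat diet for 6 weeks. Before the diet, 1 group received vehicle for 7 days and the other received Vascepa for 7 days. Vascepa is icosapent ethyl, a purified drug form of eicosapentaenoic acid, which is an omega-3 fatty acid of fish oil. Each group had 3 arrays, and no group without the diet was analysed here. No dose, vehicle or diet make-up is named in the sources used here. Separate mice are not stated for the replicates, so the p-values reflect the spread of these arrays alone, and that spread may be technical. Whole liver was measured, so fewer cells of a type and less RNA per cell cannot be told apart.

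Interferons are secreted signals of infection. Type I interferons bind the receptor of Ifnar1 and Ifnar2, whose kinases switch on a complex that holds Stat2 and Irf9, and that complex binds a short DNA element near the start of its target genes. Interferon gamma, made mainly by T and NK cells, acts through its own receptor and in part through the factor Irf1. In the liver, hepatocytes, macrophages and endothelial cells can all respond, and many target genes are also transcribed at a low level with no infection.

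Of the 33 genes, 27 had a probe of their own at or above the intensity limit and were compared, 21 of the 25 type I genes and 6 of the 8 GTPases. The own probes of Mx1, Mx2 and Gbp6 lay under the limit. The probes of Oas1a and Gbp2 also carry the name of a close relative. No probe was named for Ifi44, which was not analysed here. The limit was a mean over the 6 arrays of 2.65, the median over the whole array, in the deposited log2 units. All values below are on that scale unless a fold is named, and differences are Vascepa minus vehicle with limma's standard error (SE).

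No interferon-induced gene passed the test of Vascepa against vehicle. Limma called 0 of the 27 genes at an adjusted p under 0.05, as it called 0 of all 13493 genes tested (0%). At an unadjusted p under 0.05 there were 0 of 27, against 2.68% of all genes. The groups overlapped in all 27, while they did not overlap in 8.24% of all genes. In every one of the 27 the difference between groups was smaller than the range within at least 1 group, as it was in 96.2% of all genes. The mean was lower in Vascepa livers in 14 genes and higher in 13, with a median difference of −0.016, beside 60.1% lower and a median of −0.063 over all genes. The median size of the difference, sign aside, was 0.10 in these genes and 0.17 in all genes.

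**Figure D1:**
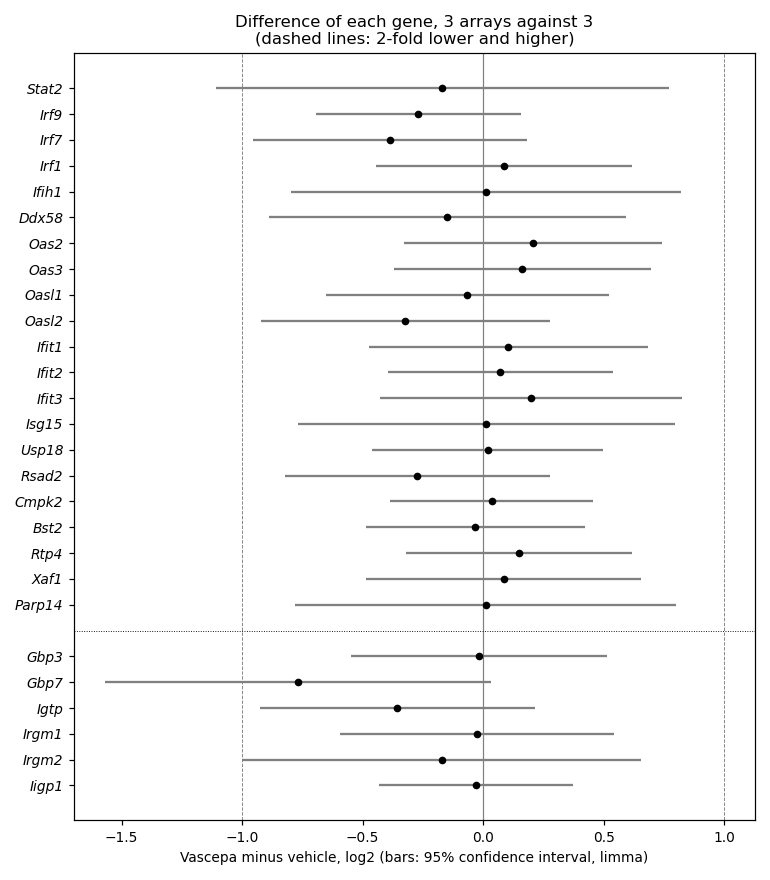
Difference of each of the 27 genes, Vascepa minus vehicle on the log2 scale (points), with 95% confidence intervals from limma (bars), 3 arrays against 3. All intervals cross 0, and 25 of the 27 lie between the dashed lines at 2-fold lower and 2-fold higher; the other 2 are Stat2 and Gbp7.

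Weighting the arrays by their fit gave another count. Limma's array weights, whose estimate stopped before it converged, put nearly all weight of the Vascepa group on replicate 2, at 39.5, with no other array above 2.33. That fit called 11 of the 27 genes (40.7%), beside 30.4% of all genes. In it Gbp7 was lower by the most, at −1.29, with Irf7, Irf9, Ddx58, Oasl2, Rsad2, Igtp and Irgm2 also lower, and Oas2, Ifit3 and Xaf1 higher. These calls rest on 1 array and are given as values only.

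The intervals show which sizes these arrays leave possible. In 25 of the 27 genes (92.6%) the 95% interval lay within a log2 difference of 1, a fold of 2, in both directions, as it did in 78.7% of all genes. The exceptions were Stat2, from −1.11 to 0.77, and Gbp7, from −1.57 to 0.031. Among the narrowest were Iigp1, from −0.43 to 0.37, and Cmpk2, from −0.39 to 0.46. The residual SD had a median of 0.32 in these genes and 0.29 in all genes.

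The response element of the type I pathway is visible in the starts of many of these genes. Its core was searched as GAAA, any pair of bases and GAAA again, on both strands of the 250 bases before each start in RefSeq (GRCm38.p6), where 25 of the 33 genes had an entry. It occurred in 14 of the 25 genes, 8 of 19 type I genes and all 6 GTPases with an entry (Gbp2, Gbp3, Gbp7, Igtp, Irgm1 and Irgm2). Of all 32851 promoters of the same length, 2.98% held it, or 3.46% of the 27025 genes with an entry. The gamma-activated site core, TTCNNNGAA, which reads the same on both strands, occurred in 7 of the 25 genes, beside 7.02% of all promoters and 8.13% of all genes with an entry. Matches can overlap each other, and a match is a description of letters, not a site shown to be bound. The first 8 genes that held the response element core, in the order of their roles, are shown with the nearest match to the start in capitals. Genes with no match were passed over. Gbp7, Igtp, Irgm1 and Irgm2 were added after their values were seen, to show the GTPases. Each is written on the strand of its gene.
Stat2, chr10:128270260-128270301, plus strand: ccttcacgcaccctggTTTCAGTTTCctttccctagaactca
Oas1a, chr5:120907526-120907555, minus strand: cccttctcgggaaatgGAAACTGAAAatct
Oas3, chr5:120777709-120777750, minus strand: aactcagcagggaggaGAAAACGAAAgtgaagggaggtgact
Ifit1, chr19:34640788-34640829, plus strand: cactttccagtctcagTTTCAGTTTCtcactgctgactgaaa
Ifit3, chr19:34583391-34583432, plus strand: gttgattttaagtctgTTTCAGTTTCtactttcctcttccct
Isg15, chr4:156200859-156200900, minus strand: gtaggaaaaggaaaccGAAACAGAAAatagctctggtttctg
Rsad2, chr12:26456547-26456588, minus strand: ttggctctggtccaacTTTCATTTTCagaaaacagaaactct
Bst2, chr8:71537571-71537612, minus strand: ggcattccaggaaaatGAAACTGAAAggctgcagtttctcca
Gbp7, chr3:142530267-142530308, plus strand: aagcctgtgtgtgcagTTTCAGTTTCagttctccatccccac
Igtp, chr11:58199506-58199547, plus strand: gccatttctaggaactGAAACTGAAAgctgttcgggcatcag
Irgm1, chr11:48871421-48871460, minus strand: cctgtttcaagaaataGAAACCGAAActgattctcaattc
Irgm2, chr11:58214897-58214938, plus strand: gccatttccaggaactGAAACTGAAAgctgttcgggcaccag

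In Stat2 the match ended 212 bases before the start, and in Isg15, which held 3 overlapping matches, the nearest ended 56 bases before it. In the GTPases the nearest matches lay close to the start, at 43 bases in Gbp7, 24 in Igtp, 14 in Irgm1 and 54 in Irgm2. The stretches of Igtp and Irgm2, genes on chromosome 11, share 40 of 42 letters. In both, a gamma-activated core lies just upstream of the response element, at 36 and 66 bases before the start.

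Among the 4 transcription factors, 3 had lower means in Vascepa livers and 1 a higher mean, and none passed (limma, adjusted p = 0.976 for each). Irf7, the factor that amplifies type I interferon production, read 5.96, 6.14 and 6.54 on vehicle arrays 1, 2 and 3 and 5.57, 5.69 and 6.22 on Vascepa arrays 1, 2 and 3. Its Vascepa replicates 1 and 2 were under all vehicle arrays, and replicate 3 lay within them (difference −0.38 ± 0.25, 1.31-fold lower). Irf9, the DNA-binding partner of the Stat complex, read 5.76, 5.67 and 5.91 in vehicle and 5.55, 5.31 and 5.67 in Vascepa livers, with overlap only between vehicle replicate 2 and Vascepa replicate 3 (−0.27 ± 0.18). Stat2, a member of that complex, ran over a wide range within both groups. It read 6.03, 5.11 and 5.86 in vehicle and 6.26, 5.48 and 4.74 in Vascepa livers, so that Vascepa arrays held both the highest and the lowest value (−0.17 ± 0.41). Irf1, the factor that carries much of the interferon gamma response, read 5.49, 4.76 and 4.95 in vehicle and 5.09, 5.30 and 5.08 in Vascepa livers (0.087 ± 0.23). Its vehicle arrays enclosed all 3 Vascepa arrays.

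The genes of both sensors of viral RNA had the same arrays at the ends of their range, and neither passed. Ifih1, which encodes the sensor MDA5 of long double-stranded RNA, read 6.79, 6.30 and 7.08 in vehicle and 7.33, 6.83 and 6.05 in Vascepa livers (0.012 ± 0.35). Ddx58, the older symbol of Rigi and the sensor of RNA ends, read 5.48, 4.90 and 5.51 in vehicle and 5.81, 4.90 and 4.74 in Vascepa livers (−0.15 ± 0.32). In both genes Vascepa replicate 1 was the highest of the 6 arrays, Vascepa replicate 3 the lowest and vehicle replicate 2 the lowest of its group. Over all genes these arrays held those places in 22.9%, 38.8% and 41.4%, each counted alone.

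The OAS family makes, or is related to enzymes that make, the short oligoadenylates that activate RNase L. Of its 4 tested genes 2 were lower and 2 higher in the mean. Oasl2 had the smallest p of the family, at 3.59, 3.06 and 3.88 in vehicle and 3.47, 2.93 and 3.16 in Vascepa livers (−0.32 ± 0.26). Oas2 read 3.14, 3.18 and 2.74 in vehicle and 2.89, 3.53 and 3.26 in Vascepa livers (0.21 ± 0.23). Oas3 read 3.60, 4.04 and 3.50 in vehicle and 4.15, 3.90 and 3.58 in Vascepa livers (0.16 ± 0.23). The groups crossed in all 3 of these genes, and no array stood at the same end throughout. Oasl1, a related protein that binds the mRNA of Irf7, lay between 3.79 and 4.10 in vehicle and between 3.45 and 4.35 in Vascepa livers (−0.066 ± 0.25). The probe shared by Oas1a and Oas1g, under the limit with a mean of 2.56, was highest on vehicle replicate 2 at 3.34 and lowest on Vascepa replicate 2 at 2.04.

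The 3 IFIT genes, neighbours on chromosome 19 whose proteins bind foreign RNA, all had slightly higher means in Vascepa livers, by 0.072 to 0.20. Ifit3 read 6.40, 6.78 and 6.32 in vehicle and 6.16, 6.94 and 6.99 in Vascepa livers (0.20 ± 0.27), and Vascepa arrays held both ends of its range. Ifit1 read 4.85, 4.39 and 5.22 in vehicle and 4.74, 5.15 and 4.87 in Vascepa livers (0.10 ± 0.25). Ifit2 read 2.49, 2.60 and 2.97 in vehicle and 2.95, 2.68 and 2.65 in Vascepa livers, close to the intensity limit (0.072 ± 0.20). None passed, and with each array centred on its median or quantile-normalized again the difference of Ifit2 turned to −0.0041 and −0.0051.

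Isg15, a ubiquitin-like protein attached to other proteins, and Usp18, the protease that removes it and damps the receptor, had nearly equal means in the groups. Isg15 read 4.33, 4.93 and 4.85 in vehicle and 4.21, 4.50 and 5.44 in Vascepa livers (0.013 ± 0.34). Its lowest and highest values were both on Vascepa arrays, replicates 1 and 3. Usp18 lay between 5.22 and 5.67 in vehicle and between 5.26 and 5.64 in Vascepa livers (0.019 ± 0.21). Both differences turned negative with each array centred on its median, to −0.063 and −0.057.

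The other effectors were as mixed, with 2 of 6 tested genes lower and 4 higher in the mean. Rsad2, which encodes viperin, an enzyme that makes a chain-terminating nucleotide, read 5.06, 4.65 and 5.06 in vehicle and 4.97, 4.26 and 4.71 in Vascepa livers (−0.27 ± 0.24). Its neighbour on chromosome 12, Cmpk2, a nucleotide kinase of mitochondria, lay between 4.27 and 4.36 in vehicle and between 4.17 and 4.58 in Vascepa livers (0.036 ± 0.18). Bst2, or tetherin, which holds budding viruses at the cell surface, read 10.32, 10.30 and 10.36 in vehicle and 10.13, 10.14 and 10.61 in Vascepa livers (−0.033 ± 0.20). The vehicle arrays of Bst2 lay close together, and the Vascepa arrays lay on both sides of them. Rtp4, a chaperone of membrane receptors, read 6.72, 6.81 and 7.05 in vehicle and 6.87, 6.87 and 7.30 in Vascepa livers (0.15 ± 0.20). Xaf1, which promotes cell death, read 3.66, 4.33 and 4.01 in vehicle and 3.85, 4.44 and 3.99 in Vascepa livers (0.086 ± 0.25). Parp14, an ADP-ribosyltransferase, read 6.57, 5.64 and 6.29 in vehicle and 6.59, 6.40 and 5.55 in Vascepa livers (0.011 ± 0.34). In Parp14 the lowest value of each group, on vehicle replicate 2 and Vascepa replicate 3, was 5.64 and 5.55.

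The antiviral Mx GTPases, which C57BL/6 mice are known to carry in defective form, were dim. Mx1 read 1.10, 1.24 and 1.34 in vehicle and 1.57, 1.54 and 2.99 in Vascepa livers. Its groups did not overlap, as in 423 of the 13493 genes above the limit for the same direction. Only Vascepa replicate 3 of Mx1 reached the limit of 2.65. Without the intensity limit, over 22180 genes, its difference was 0.81 ± 0.37 (limma, adjusted p = 0.967). Mx2 lay between 1.75 and 2.28 in vehicle and between 2.04 and 2.53 in Vascepa livers.

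**Figure D2:**
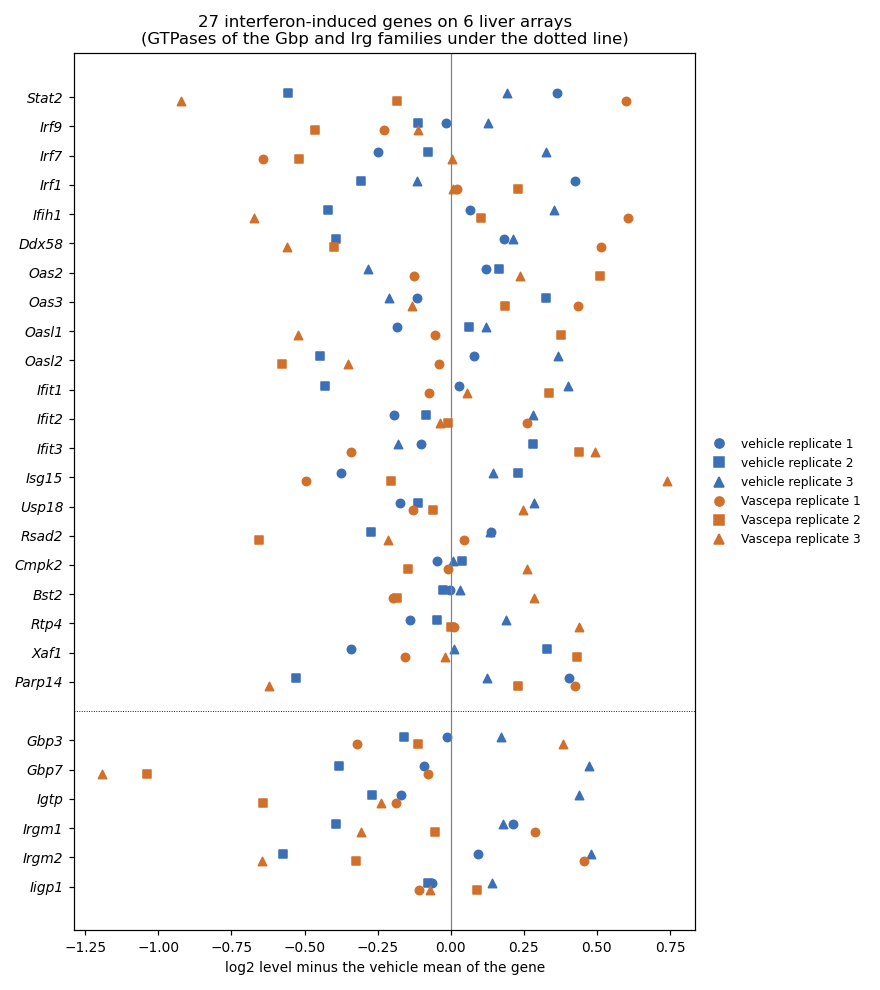
Log2 level of the 27 genes on each array, as the deviation from the gene's own vehicle mean (x axis); blue points are the 3 vehicle arrays, orange points the 3 Vascepa arrays, and the marker gives the replicate number. Orange points lie on both sides of 0 in most genes, and the farthest are Vascepa replicates 2 and 3 in Gbp7 and replicate 3 in Stat2.

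The Gbp and Irg GTPases, which gather on the vacuoles of intracellular microbes and break or mark them, had lower means in Vascepa livers in all 6 tested genes. The median difference was −0.10, from −0.77 to −0.016, and 0 of 6 passed (limma, adjusted p of at least 0.976). By comparison 60.1% of all genes were lower, and of the 21 type I genes 8 were lower (38.1%), with a median of 0.013. The share of lower genes rose with the intensity limit. With the limit at the 75th percentile of probe means, 73.3% of all genes were lower, with a median of −0.14. At that limit 5 of 5 tested GTPases were lower, with a median of −0.17, and 6 of 14 type I genes, with a median of 0.012. Whether the GTPases differed from the type I genes was not tested. The GTPase median turned to 0.053, with 2 of 6 lower, without vehicle replicate 3, where 58.8% of all genes were lower. It was −0.34 without vehicle replicate 2. Quantile normalization again gave −0.040 with 4 of 6 lower, beside a median of −0.030 and 55.2% lower over all genes. Centring gave −0.18 with 6 of 6 lower, beside a median of −0.14 and 71.1% lower over all genes. The type I median turned to −0.063 with centring and was 0.11 with quantile normalization again.

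Gbp7 had the largest difference and the smallest p of the 27 genes. It read 5.98, 5.69 and 6.55 in vehicle and 6.00, 5.04 and 4.88 in Vascepa livers, so that Vascepa replicates 2 and 3 were under every vehicle array and replicate 1 was not. Its mean was 1.70-fold lower (−0.77 ± 0.35, limma, unadjusted p = 0.058 and adjusted p = 0.976). Without Vascepa replicate 1 the difference was −1.11 (adjusted p = 0.306), and without vehicle replicate 3 it was −0.53, the smallest over single arrays left out. Gbp7 stayed lower in each of the alternatives run.

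The neighbours of Gbp7 on chromosome 3 did not share one pattern. Gbp3 read 4.31, 4.16 and 4.49 in vehicle and 4.002, 4.21 and 4.70 in Vascepa livers (−0.016 ± 0.23), and its Vascepa replicate 3, low in Gbp7, was the highest array. The probe shared by Gbp2 and Gbp2b read 4.79, 4.57 and 4.43 in vehicle and 4.37, 4.19 and 4.14 in Vascepa livers. Its groups did not overlap, as in 4.6% of the 20673 probes above the limit for the same direction, and the difference was −0.36 ± 0.19 (limma over those probes, adjusted p = 0.985). Which of these genes gave that signal cannot be told apart. Gbp6, on chromosome 5 and under the limit, read 1.65, 2.16 and 2.51 in vehicle and 1.58, 1.33 and 2.03 in Vascepa livers.

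Among the Irg proteins, Igtp, Irgm1 and Irgm2 are regulators that protect the cell's own membranes, and Iigp1 is an effector. Igtp read 5.61, 5.52 and 6.22 in vehicle and 5.60, 5.14 and 5.54 in Vascepa livers (−0.36 ± 0.25). Irgm2, its neighbour, read 5.69, 5.03 and 6.08 in vehicle and 6.06, 5.27 and 4.95 in Vascepa livers (−0.17 ± 0.36). Irgm1 read 5.04, 4.44 and 5.01 in vehicle and 5.12, 4.78 and 4.52 in Vascepa livers (−0.024 ± 0.25). In these 3 genes the lowest vehicle array was replicate 2, and in Irgm1 and Irgm2 Vascepa replicate 1 lay about as high as the upper vehicle arrays. Iigp1 was even throughout, at 9.79, 9.77 and 9.99 in vehicle and 9.74, 9.94 and 9.78 in Vascepa livers (−0.029 ± 0.17).

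Vehicle replicate 3 held the highest of the 6 values in 10 of the 27 genes (37.0%, beside 11.7% of all genes), and vehicle replicate 2 in none of them (14.5% of all genes). Vascepa replicate 3 held the lowest value in 7 of the 27 (25.9%), beside 38.8% of all genes. In all 6 GTPases vehicle replicate 2 was the lowest of its group, as it was in 10 of 21 type I genes and in 41.4% of all genes. The median of the GTPases lay at −0.038, −0.33 and 0.31 from the gene's vehicle mean on vehicle replicates 1, 2 and 3 and at −0.093, −0.22 and −0.27 on Vascepa replicates 1, 2 and 3. The spread among vehicle arrays enclosed all 3 Vascepa arrays. The type I genes moved less as a set, from −0.086 to 0.14 on the vehicle arrays and from −0.040 to −0.0090 on the Vascepa arrays.

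**Figure D3:**
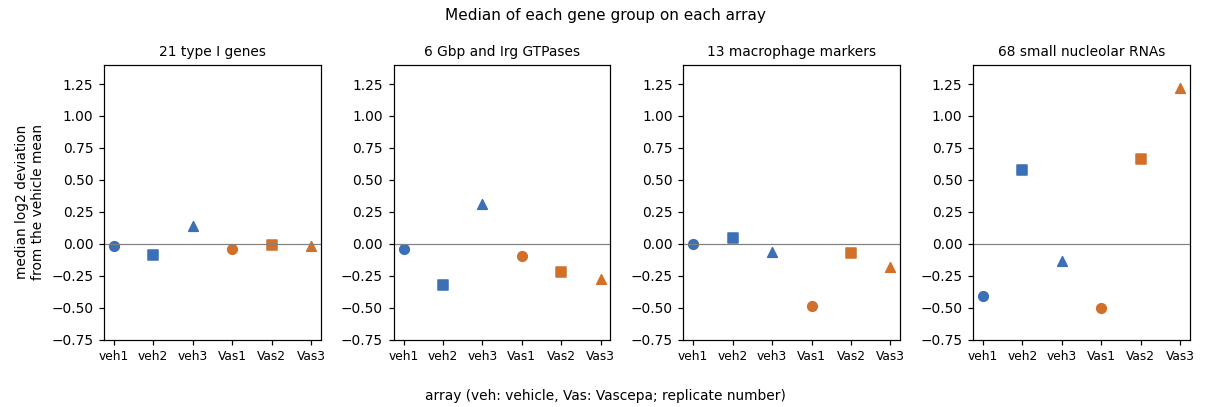
Median log2 deviation from the vehicle mean, on each of the 6 arrays, of the 21 type I genes, the 6 GTPases, 13 macrophage markers and 68 small nucleolar RNAs. The GTPases run from −0.33 to 0.31 within the vehicle group alone, and small nucleolar RNAs are highest on Vascepa replicate 3, at 1.22.

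Part of this spread between arrays moved with the level of small nucleolar RNAs, short nuclear RNAs that guide the chemical modification of ribosomal RNA. Their mean over 68 genes was 5.80, 6.69 and 6.06 in vehicle replicates 1 to 3 and 5.67, 6.82 and 7.36 in Vascepa replicates 1 to 3. In a limma fit with this level beside the treatment, 9 of the 27 genes had a slope on it at an adjusted p under 0.05 (33.3%), beside 27.9% of all genes. That share was close to the share of all genes. The slope was negative in 7 of the 9, Stat2, Ifih1, Ddx58, Parp14, Gbp7, Irgm1 and Irgm2, and positive in Isg15 and Ifit3. Stat2 fell by 0.91 for each log2 unit of the small RNAs (limma, adjusted p = 0.00173) and Irgm2 by 0.71 (adjusted p = 0.0106). Isg15 rose by 0.64 for each unit (adjusted p = 0.0202). With that level in the fit, 0 of 27 differences between groups passed, and 2 had an unadjusted p under 0.05, Irf7 at −0.50 and Gbp7 at −0.49, beside 6.06% of all genes. The reading of slopes was chosen after the values were seen, and what sets the small RNA level was not tested.

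**Figure D4:**
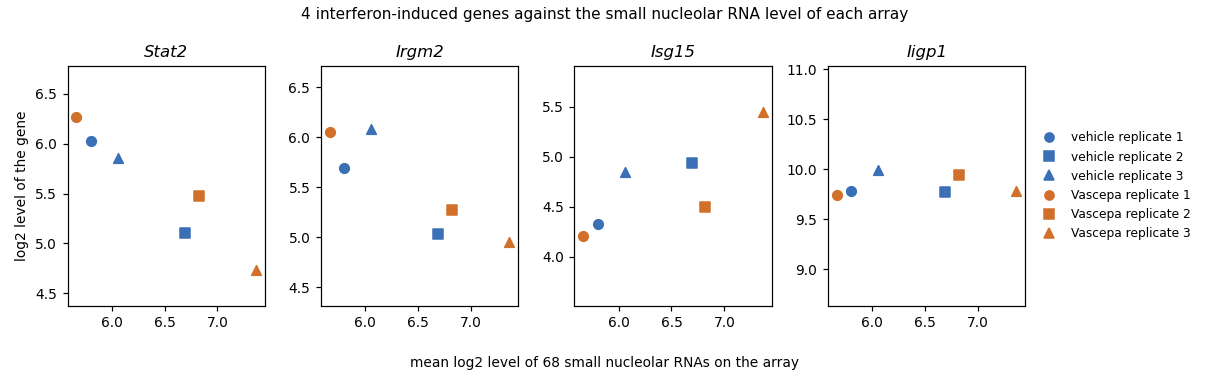
Log2 level of Stat2, Irgm2, Isg15 and Iigp1 (y axes, each spanning the same log2 range) against the mean log2 level of 68 small nucleolar RNAs (x axis) on the 6 arrays, for genes chosen after their values were seen. Stat2 and Irgm2 are low and Isg15 is high on Vascepa replicate 3, where the small RNAs are highest, while Iigp1 stays between 9.74 and 9.99.

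The rest of the pathway was read from gene lists, and 0 genes of any of these lists passed (limma, adjusted p of at least 0.976 for the genes named here). Of 19 interferon genes 6 were tested, 3 lower and 3 higher, the others lying under the limit or sharing a probe. Ifng, the gene of interferon gamma, and Ifnb1, of interferon beta, were among those not tested. Ifna14, with the smallest p, differed by 0.50 ± 0.36, Ifna7 by −0.32 ± 0.28 and Ifna4 by −0.22 ± 0.21, and these near-identical genes may share signal.

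All 5 tested receptor genes were lower in the mean, with a median of −0.26, and none had an unadjusted p under 0.05. Over all genes 60.1% were lower, with a median of −0.063. With the limit at the 75th percentile of probe means 73.3% were lower, with a median of −0.14. Ifnar2, of the type I receptor, read 8.79, 8.55 and 8.65 in vehicle and 8.49, 8.25 and 8.21 in Vascepa livers, with no overlap (−0.35 ± 0.18), as in 5.11% of all genes for that direction. Ifngr1, which binds interferon gamma, differed by −0.30 ± 0.18, with Vascepa replicate 2 inside the vehicle range. Il10rb, shared by the lambda interferon and interleukin-10 receptors, differed by −0.19 ± 0.18. The 4 tested kinases and STAT factors were lower in the mean too, led by Stat3 at −0.45 ± 0.51, Tyk2 at −0.16 ± 0.26 and Jak1 at −0.18 ± 0.30. In Stat3 the values ran from 7.07 to 8.29 in vehicle and from 6.29 to 8.27 in Vascepa livers.

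Of 13 tested genes of nucleic acid sensing and its adaptors, 10 were lower in the mean and 3 higher, beside 60.1% lower over all genes. Their median was −0.34, beside −0.063 over all genes. Unc93b1, which carries nucleic acid-sensing Toll-like receptors to endosomes, was the 1 gene with an unadjusted p under 0.05 (1.64% of all genes for that direction). It read 6.04, 5.59 and 5.89 in vehicle and 5.66, 4.90 and 4.88 in Vascepa livers (−0.70 ± 0.26). Ticam1, the adaptor of Tlr3, differed by −0.81 ± 0.35 and its groups did not overlap, as in 5.11% of all genes for that direction. Mavs, the mitochondrial adaptor of Ifih1 and Ddx58, differed by −0.71 ± 0.35, with Vascepa replicate 3 lowest at 6.23 and Vascepa replicate 1 within the vehicle range at 7.75. Restraints on the pathway were lower in 8 of 10 tested genes, with a median of −0.12. Ptpn6, a phosphatase of blood cells, differed by −0.36 ± 0.22, Socs3 by −0.21 ± 0.17 and Samhd1, which breaks down nucleotides, by −0.21 ± 0.28.

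None of the other interferon-induced genes passed, though their median lay below the −0.016 of the 27 genes and the −0.063 of all genes. Of 44 tested, 27 were lower and 17 higher in the mean, with a median of −0.15, and 3 had an unadjusted p under 0.05, beside 60.1% lower and 2.68% at that p over all genes. These were Sp110, a nuclear body protein, at −0.56 ± 0.19, Tor3a at −0.49 ± 0.20 and Lgals3bp, a secreted glycoprotein, at −0.82 ± 0.35. Sp110 read 4.09, 4.26 and 3.96 in vehicle and 3.53, 3.73 and 3.35 in Vascepa livers. Its groups did not overlap, as in 5.11% of all genes for that direction. All 9 other Gbp and Irg genes tested were lower in the mean, with a median of −0.26, and Gm12250 and Gm4951 differed by −0.47 ± 0.30 and −0.38 ± 0.26. Gm4841, a gene of the same group, had an unadjusted p under 0.05, at 4.54, 4.10 and 4.48 in vehicle and 3.79, 3.72 and 3.77 in Vascepa livers (−0.61 ± 0.19). On the 6 arrays the median of these 9 genes lay at 0.17, −0.28 and 0.20 in vehicle and −0.11, −0.64 and 0.025 in Vascepa livers. Vehicle replicate 2 was again the low array of its group. Of 21 other genes induced by interferon gamma 14 were lower, with a median of −0.049. Wars, a tRNA synthetase, differed by −0.55 ± 0.23, and Cxcl10, a chemokine that draws T cells, by −0.36 ± 0.18. In both the groups did not overlap, as in 5.11% of all genes for that direction. Tapbp, which loads peptides on MHC class I, differed by −0.40 ± 0.30.

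Cell markers gave the setting of these values. The 11 tested hepatocyte markers had a mean level between 11.3 and 11.7 on the 6 arrays, lowest on Vascepa replicate 3. Of these, 9 were lower, with a median of −0.071 beside −0.063 over all genes. Hnf4a and Fga differed by −0.38 ± 0.35 and −0.22 ± 0.22. Macrophage markers were lower in 11 of 13 tested genes, with a median of −0.19 and 3 genes at an unadjusted p under 0.05, beside 60.1% lower and 2.68% at that p over all genes. Vsig4 and Cd68 differed by −0.53 ± 0.18 and −0.54 ± 0.20. The mean level of the macrophage list ran from 6.10 to 6.19 in vehicle and from 5.67 to 6.11 in Vascepa livers, and Vascepa replicate 1 was its lowest array. That array was the lowest of the 6 in 6 of the 27 interferon-induced genes (22.2%), beside 18.2% of all genes. It was the highest in 6 of them (22.2%), beside 22.9% of all genes. Endothelial markers were lower in 8 of 9, with a median of −0.10, a mean level from 6.23 to 6.41 in vehicle and from 5.89 to 6.31 in Vascepa livers, and Tie1 and Pecam1 at −0.39 ± 0.17 and −0.43 ± 0.20. T and NK cell markers, 9 of 15 tested, lay between 3.16 and 3.37 in vehicle and between 3.18 and 3.25 in Vascepa livers. Of these, 5 were lower and 4 higher, with Cd3e at −0.46 ± 0.25 and Tbx21 at 0.45 ± 0.31. Markers of plasmacytoid dendritic cells, which make type I interferon, were lower in 6 of 8 tested genes, with a median of −0.048. Irf7 had the smallest p of that list, at −0.38 ± 0.25, followed by Siglech, 1 of the 2 higher genes, at 0.29 ± 0.21. That list shares Irf7 and Bst2 with the genes described here. Stellate cell markers were lower in 6 of 8, neutrophil markers in 2 of 4, B cell markers in 2 of 4, cholangiocyte markers in 1 of 4 and dendritic cell markers in 0 of 2. The part of any of these cells in the values above was not tested.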

How the data were processed

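Per the submitters' processing notes, the authors made the deposited log2 expression values with Affymetrix Expression Console and RMA, which corrects background, normalizes arrays together and compresses differences at the dim end. The sources used here name no versions, genome build or scan dates, so batches were not tested. Of 41345 probes, 23521 had 1 gene symbol in the platform annotation and 1814 several. Symbols were updated by gene ID (GRCm38.p6 RefSeq table, used for names). Genes with a single-symbol probe whose mean over 6 arrays reached the median of all probes were kept, at their highest-mean probe, and compared between Vascepa and vehicle by lmFit and eBayes of limma 3.58.1 (R 4.3.3), with no covariate and Benjamini-Hochberg adjustment over all 13493 genes. The procedure was tested on simulated data. Alternatives changed the filter, scaling, prior, weights, probe choice, block, covariate and arrays. Members and lists were chosen with earlier results of these data known. All 33 members are accounted for. Values on every array are given for the GTPases, the transcription factors and the 10 other members with the smallest p, and for further members chosen after their values were seen. Each pathway list names up to 3 genes with the smallest p and each main cell list up to 2. The number of arrays limits the precision, and across genes the arrays correlated with each other at 0.906 to 0.986.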

Additional observations from a re-analysis of the deposited data

How the results depend on the processing

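No member passed the adjusted threshold with no filter, the 75th percentile filter, centring, quantile normalization again, the trended prior, the replicate block, probe means, the small nucleolar RNA level as covariate or any 1 array left out. Array weights gave Vascepa replicate 2 a weight of 39.5 and no other array more than 2.33. They called 11 of 27 members (40.7%), beside 4100 of all genes (30.4%). At an unadjusted p under 0.05 they put 14 members, beside 43.7% of all genes. With them the type I median was −0.15 and the GTPase median −0.40, beside −0.055 over all genes. The small RNA covariate called 2 of all genes and put 2 members at an unadjusted p under 0.05, the replicate block put 1 there, and leaving out single arrays 0 to 1. Whether the replicate numbers pair the samples cannot be told from these arrays. The deviations of arrays 1, 2 and 3 correlated at 0.61, 0.11 and −0.13 between groups. Those of vehicle replicate 2 and Vascepa replicate 3 correlated at 0.57. The type I median was 0.11 with quantile normalization again, and the GTPase median ran from −0.34 to 0.053 over arrays left out. Directions were unstable, and 8 of the 27 members kept theirs throughout. Signs turned with centring in Ifih1 (−0.064), Ifit2 (−0.0041), Isg15 (−0.063), Usp18 (−0.057), Cmpk2 (−0.040) and Parp14 (−0.065). With quantile normalization again they turned in Ifit2 (−0.0051), Gbp3 (0.077) and Irgm1 (0.063). With array weights they turned in Ifih1 (−0.094), Oasl1 (0.31), Ifit2 (−0.15), Isg15 (−0.27), Usp18 (−0.21), Cmpk2 (−0.15), Rtp4 (−0.093) and Iigp1 (0.015). With the small RNA covariate they turned in Stat2 (0.23), Ddx58 (0.14), Ifit3 (−0.026), Isg15 (−0.26), Usp18 (−0.041), Cmpk2 (−0.012), Xaf1 (−0.032), Irgm1 (0.16) and Irgm2 (0.14). Over single arrays left out, differences that crossed 0 ran from −0.55 to 0.21 in Stat2, −0.067 to 0.30 in Irf1, −0.29 to 0.35 in Ifih1, −0.48 to 0.058 in Ddx58, −0.29 to 0.16 in Oasl1, −0.11 to 0.31 in Ifit1, −0.026 to 0.21 in Ifit2, −0.35 to 0.27 in Isg15, −0.095 to 0.16 in Usp18, −0.077 to 0.13 in Cmpk2, −0.19 to 0.050 in Bst2, −0.087 to 0.25 in Xaf1, −0.25 to 0.33 in Parp14, −0.22 to 0.14 in Gbp3, −0.22 to 0.12 in Irgm1, −0.49 to 0.068 in Irgm2 and −0.090 to 0.041 in Iigp1. Apart from the changes in samples, weights or covariate themselves, the cause was not tested.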
